A study of Mus musculus with 6 samples.

Results

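The microRNA miR-126a was followed through both of its arms, mmu-miR-126a-3p and mmu-miR-126a-5p, in exosomes released by mouse endothelial cells. The members were taken by name, as the probes called mmu-miR-126a-3p and mmu-miR-126a-5p on the array, and these were 2 of 1118 mouse miRNA probes. Each arm had 1 probe, and each probe had 4 spots on every array. Cells kept for 48 h at 3.5 mM inorganic phosphate (high phosphate, 3 arrays) were compared with cells kept for 48 h at 0.9 mM (normal phosphate, 3 arrays). All cells were purchased mouse endothelial cells with no genetic change named in the labels, grown with 12% fetal bovine serum, endothelial growth supplement and heparin, and vesicles were spun out of the culture supernatant by differential centrifugation. The labels do not say whether serum vesicles were removed beforehand or whether the 3 replicates were separate cultures, so the p-values measure only the spread between these arrays, which may be technical.

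A microRNA is cut from a hairpin precursor, and either arm of that hairpin can be loaded into an Argonaute protein, where bases 2 to 8 of the mature strand (the seed) select target messages. The miR-126 hairpin lies within Egfl7, a gene expressed in endothelial cells, and miR-126 is known from mouse and zebrafish studies to maintain vascular integrity and the response to vascular growth factors. The 3p arm is known to target Spred1 and Pik3r2, inhibitors of growth factor signalling, and Vcam1, an adhesion molecule for leukocytes. The 5p arm is known to target Dlk1, an inhibitor of endothelial proliferation. Platelets and blood progenitors also carry miR-126.

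RefSeq (GRCm38.p6) places the hairpin gene Mir126a on the plus strand at chr2:26591357-26591429, inside the interval of Egfl7 at chr2:26581083-26592682. The mature 3p arm lies at chr2:26591402-26591423. It is shown with its seed in capitals, since the seed is the part that selects targets, and the hairpin is shown with the 3p arm in capitals to place it in the precursor.
miR-126a-3p: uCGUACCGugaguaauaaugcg
Mir126a hairpin: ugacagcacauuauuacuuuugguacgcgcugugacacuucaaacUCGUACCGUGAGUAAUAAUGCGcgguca
The 3p arm occupies bases 46 to 67 of the 73 bases of the hairpin. Of 1679 mature mouse names in the RefSeq table, 1 carried this seed, namely miR-126a-3p itself. Of the 2 members, 1 had a mature sequence in that table, and miR-126a-5p is named only. RefSeq also lists miR-126b, read from the opposite strand of the same segment, whose 5p arm overlaps the 3p arm of miR-126a by 19 bases.
miR-126b-5p: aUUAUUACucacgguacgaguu
No probe used here carried the name miR-126b.

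Averaged over their 4 spots, both arms were above background on every array. Signal is given as units of foreground minus local background, the mean of the spots of a probe, and a probe counted as above background where it exceeded the 95th percentile of 57 probes for viral miRNAs, a level between 1627 and 3233 units depending on the array. The 3p arm stood at 1.73 to 3.52 times the level in high phosphate and at 2.12 to 4.92 times in normal phosphate. The 5p arm stood at 3.09 to 5.14 times the level in high phosphate and at no less than 3.50 times in normal phosphate. Of 13 miRNAs listed as endothelial markers, all were on the array and 11 were tested, meaning above background on at least 3 of the 6 arrays. Both arms of miR-126a are themselves on this list. The summed level of the 13 ran from 91084.5 to 141618 units in high and from 128329 to 167096 units in normal phosphate. Its largest part was miR-10b-5p, at 28689 to 47458 units in high and 40796 to 61663 units in normal phosphate.

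Arrays of both groups also carried signal above background on some markers of other cells. Each sum below is over all probes of a list that were found by name, whether or not they were tested. Of 4 red cell markers 3 were matched to a probe by name and tested, with sums of 43151 to 56299 units in high and 56587 to 71944 units in normal phosphate. The marker listed as miR-486-5p matched no probe of that exact name. A joint probe for miR-486a-5p with miR-486b-5p was on the array and tested, but it is not part of these sums. Of 6 muscle markers 3 were tested and miR-208a-3p stayed under 50 units on all arrays, with sums of 67286.5 to 94964 units in high and 87575.5 to 116163 units in normal phosphate. The liver miRNA miR-122-5p ran from 8517 to 14182 units in high and from 12880 to 24575 units in normal phosphate. Of the leukocyte list 1 of 5 was tested, with sums of 4342 to 6049 units in high and 5425 to 7964 units in normal phosphate. Of the epithelial list 1 of 6 was tested, with sums of 5553 to 7235 units in high and 6936 to 9851 units in normal phosphate. Of 4 neuronal markers 0 were tested and miR-137-3p stayed under 50 units, with sums of 1841 to 2767 units in high and 1140 to 2342 units in normal phosphate. The platelet list held only miR-223-3p and miR-126a-3p itself, with sums of 6349 to 8162 units in high and 9138 to 11432 units in normal phosphate. In bulk vesicle RNA, fewer vesicles of one source and less miRNA per vesicle cannot be told apart. The part of these other sources in the miR-126a signal was not tested.

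In the order of brightness among the 1118 mouse probes, the 5p arm stood at rank 45 and the 3p arm at rank 52 by the mean over the 6 arrays. This order is one of probes, which differ in affinity, and not of amounts of RNA. The 3p arm ranked 75, 57 and 49 on the high phosphate arrays, against 43, 50 and 58 on the normal phosphate arrays. The 5p arm ranked 48, 31 and 45 in high phosphate, against 52, 45 and 40 in normal phosphate. These ranks depended on the spots for the 3p arm, as blocks 1 to 18 put it at 151, 97 and 47 in high and 42, 45 and 75 in normal phosphate, while blocks 19 to 36 put it at 49, 41 and 54 in high and 44, 51 and 44 in normal phosphate. Next to the 3p arm stood miR-299a-5p (rank 50), miR-761 (rank 51), miR-100-5p (rank 53) and miR-26b-5p (rank 54), with means between 6579 and 7078 units. Next to the 5p arm stood miR-92a-3p (rank 43), miR-382-5p (rank 44), let-7d-5p (rank 46) and miR-471-5p (rank 47), with means between 8174 and 9106 units. These gaps are smaller than the spread between arrays of one group. For the 5p arm that spread was an SD of 2622 units in high and 2094 units in normal phosphate (n = 3 each). Such an SD also holds any brightness common to an array, so it is not the error of a difference between neighbours. Whether neighbouring ranks differ was not tested.

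As an average over 4 spots, the 3p arm was dimmer in all high phosphate arrays. It measured 4603, 6084.5 and 5734 units in high phosphate, against 9967, 7818 and 6845 units in normal phosphate. The groups did not overlap, and their means were 5474 ± 774 units in high and 8210 ± 1597 units in normal phosphate (SD, n = 3 each), a ratio of 0.667 (2-sided exact permutation p = 0.1, which is the lowest reachable with 3 arrays a group). Of 129 mouse probes tested, 15 (11.6%) were lower in high phosphate without overlap on this scale, the 3p arm among them, so this pattern is not particular to miR-126a. The median level of the tested probes was 5120 ± 613 units in high and 5592 ± 209 units in normal phosphate (SD, n = 3 each), and the Hy3 control spots stood at 387 ± 58.1 units in high and 607.3 ± 66.1 units in normal phosphate (SD, n = 3 each).

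The 4 spots behind that average differed widely on some arrays. Each probe was printed as 2 spots among blocks 1 to 18 of the array and as another 2 among blocks 19 to 36, and the 3p probe lay in block 13 and block 31. In block 13 its spots read 1190 and 1445 units on high phosphate array 1, 2663 and 3014 units on array 2, and 5754 and 5399 units on array 3. In block 31 on the same arrays they read 8126 and 7651, 10237 and 8424, and 5469 and 6313 units. On arrays 1 and 2 of high phosphate the block 31 spots were therefore several times brighter than the block 13 spots, while on array 3 they lay together. Averaged, the block 13 spots of array 1 stood at 0.494 times the background level, the only one of the 6 arrays where they fell short of it.

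In normal phosphate the 3p spots of block 13 read 10144 and 10531 units on array 1, 7757 and 7928 units on array 2, and 3053 and 5492 units on array 3. In block 31 they read 9715 and 9477, 7315 and 8272, and 9436 and 9399 units. Only array 3 of this group showed the same lower reading in block 13 as high phosphate arrays 1 and 2. Averaged over the spots of block 31, the 3p arm measured 7889, 9331 and 5891 units in high phosphate, against 9596, 7794 and 9418 units in normal phosphate. The groups overlapped there, with means of 7703 ± 1727 units in high and 8936 ± 993 units in normal phosphate (SD, n = 3 each), a ratio of 0.862 (2-sided exact permutation p = 0.4). In block 13 the means were 3244 ± 2158 units in high and 7484 ± 3048 units in normal phosphate (SD, n = 3 each), a ratio of 0.433 with overlapping groups (2-sided exact permutation p = 0.2). Without overlap and lower in high phosphate were 16 of the 129 tested probes (12.4%) in blocks 1 to 18 and 20 (15.5%) in blocks 19 to 36, and the 3p arm was in neither count.

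**Figure D1:**
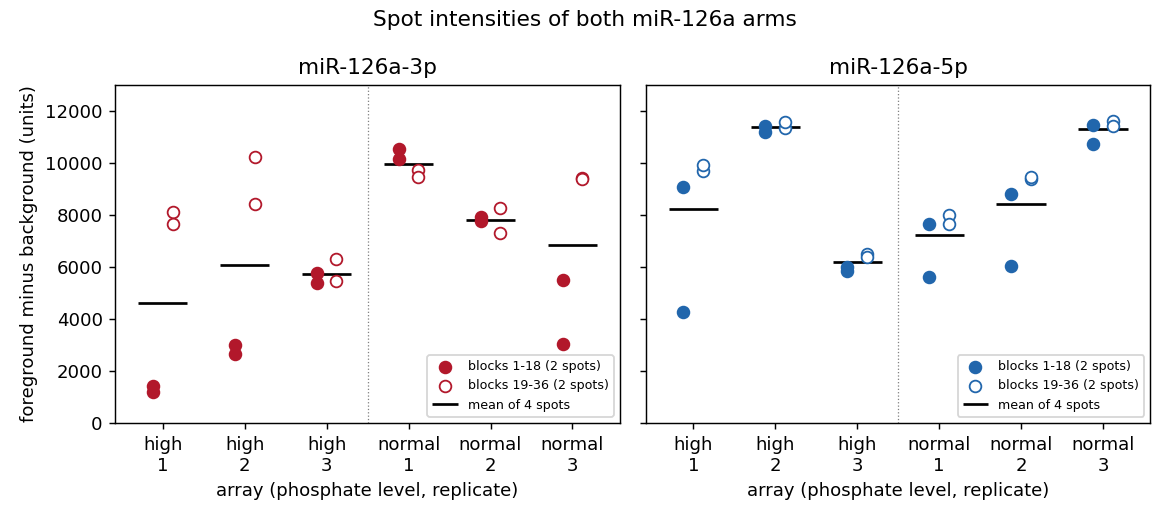
Foreground minus background in units (vertical axis) of each of the 4 spots of miR-126a-3p (left) and miR-126a-5p (right) on the 3 high and the 3 normal phosphate arrays (horizontal axis). Filled points are spots in blocks 1 to 18, open points spots in blocks 19 to 36, and the line is the mean of 4 spots. The filled 3p points fall to 1190 units on high phosphate array 1 while the open ones stay at 7651 and 8126 units.

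The 5p arm, printed in block 7 and block 25, showed no such split in most arrays. It measured 8237, 11395 and 6190 units in high phosphate, against 7231, 8425 and 11305 units in normal phosphate, over all 4 spots. The groups overlapped across nearly their whole range, with means of 8607 ± 2622 units in high and 8987 ± 2094 units in normal phosphate (SD, n = 3 each), a ratio of 0.958 (2-sided exact permutation p = 0.8). In block 25 its ratio of high over normal phosphate was 0.964 (2-sided exact permutation p = 0.9) and in block 7 it was 0.950 (2-sided exact permutation p = 0.8). A single spot in block 7 stood apart on high phosphate array 1, at 4292 units beside 9067 units for its partner, and the partners in block 7 also differed on normal phosphate array 1 (7664 and 5636 units) and array 2 (6048 and 8819 units).

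The coefficient of variation over the 4 spots puts these splits on one scale. For the 3p arm it was 82.6%, 62.8% and 7.25% on high phosphate arrays 1, 2 and 3, against 4.68%, 5.09% and 45.8% on the normal phosphate arrays. Ordered from the widest spread among the 129 tested probes, the 3p arm ranked 3, 17 and 96 in high phosphate and 77, 82 and 13 in normal phosphate. For the 5p arm the coefficient was 32.2%, 1.38% and 5.15% in high phosphate, against 14.9%, 19.1% and 3.47% in normal phosphate. The median over tested probes was 17.1%, 30.3% and 16.2% on the high phosphate arrays and 5.84%, 8.85% and 11.2% on the normal phosphate arrays, without overlap between the groups. Spots of one array are repeats of one hybridisation and not replicates of a condition.

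As a log2 ratio of blocks 1 to 18 over blocks 19 to 36, the 3p arm stood at -2.58, -1.72 and -0.08 in high phosphate, against 0.11, 0.01 and -1.14 in normal phosphate. The 5p arm stood at -0.55, -0.02 and -0.12 in high phosphate, against -0.23, -0.34 and -0.05 in normal phosphate. Among the tested probes, 35, 33 and 12 differed between the block sets by more than 1 on the log2 scale on the high phosphate arrays, against 1, 7 and 11 on the normal phosphate arrays. The median size of this log2 ratio was 0.35, 0.48 and 0.28 in high phosphate, against 0.09, 0.16 and 0.23 in normal phosphate. The disagreement of the 3p arm was thus among the wider ones on 3 arrays and was shared by many probes. Whether the ratio itself differed between phosphate levels was fitted over the 129 tested probes after seeing the spots. For the 3p arm it differed by -1.12 (SE 0.71), and its 95% interval ran from -2.90 to 0.66 (limma with Benjamini-Hochberg adjustment, adjusted p = 0.556). In that fit 0 of 129 probes (0%) passed after adjustment, and 10 had an unadjusted p under 0.05. Without limma's variance moderation 0 passed and 12 had an unadjusted p under 0.05.

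**Figure D2:**
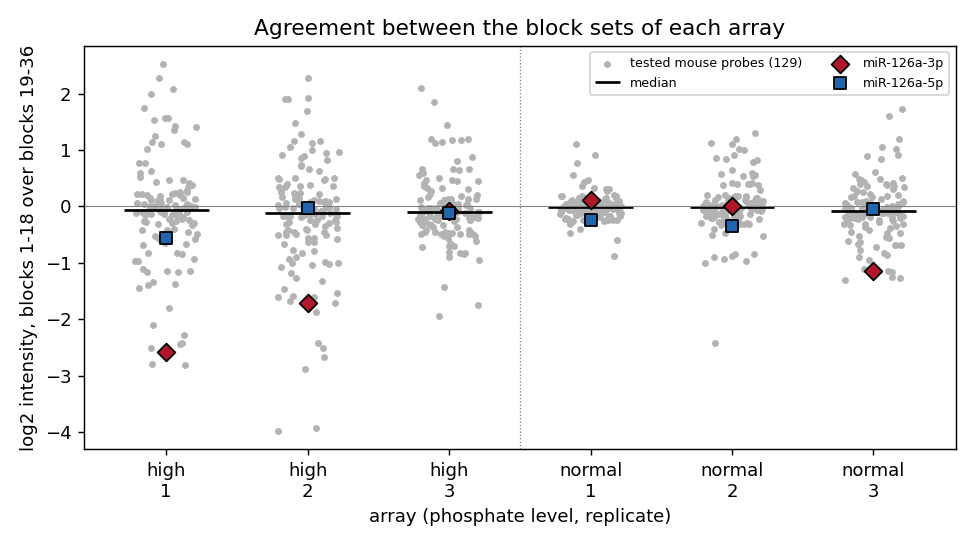
Log2 ratio of the mean intensity in blocks 1 to 18 over that in blocks 19 to 36 (vertical axis) for 129 tested mouse probes (grey points, with their median as a line) on the 3 high and the 3 normal phosphate arrays (horizontal axis). The 3p arm (diamond) lies at -2.58 on high phosphate array 1 and the 5p arm (square) at -0.55.

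Probes printed near miR-126a-3p were set beside it. These were the mouse probes in the same block within 4 columns and 1 row whose mean in block 31 over the 6 arrays exceeded 1000 units, a rule chosen after the values were seen. Of the 5 probes that met it, 3 were among the tested probes, while miR-505-5p and miR-99b-3p were below background in both blocks on all 6 arrays, so that no ratio is read from them. The probes miR-15a-5p, a member of the miR-15/16 family that targets Bcl2 and cyclins, and miR-22-3p, which is known from heart and muscle, lay 2 and 4 columns away in the same row. Their mature sequences are shown beside that of the 3p arm above, with seeds in capitals, to show which sequences these neighbouring spots measure.
miR-15a-5p: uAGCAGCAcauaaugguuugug
miR-22-3p: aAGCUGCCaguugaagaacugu
RefSeq (GRCm38.p6) places miR-15a-5p at chr14:61632075-61632096 on the minus strand and miR-22-3p at chr11:75463772-75463793 on the plus strand. In block 13 miR-15a-5p read 789, 1606 and 2559 units in high phosphate, against 4637, 4135 and 2205 units in normal phosphate, while in block 31 it read 4254, 4405 and 2983 units in high and 4344, 3743 and 3782 units in normal phosphate. Its log2 ratio of block 13 over block 31 was -2.43, -1.46 and -0.22 in high and 0.09, 0.14 and -0.78 in normal phosphate. For miR-22-3p the ratio was -1.80, -1.32 and -0.28 in high and 0.19, 0.11 and -0.86 in normal phosphate. Both were lower in block 13 on the arrays where the 3p arm was lower there, although miR-15a-5p was above background in block 13 on only 3 of the 6 arrays. For miR-32-3p, above background in block 13 on 4 arrays, the ratio was -1.15, -0.78 and 0.04 in high and 0.00, -0.22 and -0.47 in normal phosphate. The pattern was not limited to this pair of blocks. Of all tested probes, the one closest to the 3p arm in this ratio, by the root mean square difference over the 6 arrays, was miR-16-5p of blocks 14 and 32, at -2.81, -1.68 and 0.05 in high and 0.01, -0.40 and -1.11 in normal phosphate. After it came miR-15a-5p, miR-22-3p and then miR-146a-5p of blocks 17 and 35. Over the 14 tested probes of this pair of blocks the median ratio was -0.20, -1.16 and -0.06 in high and 0.10, 0.02 and -0.08 in normal phosphate. The cause of the split was not tested.

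**Figure D3:**
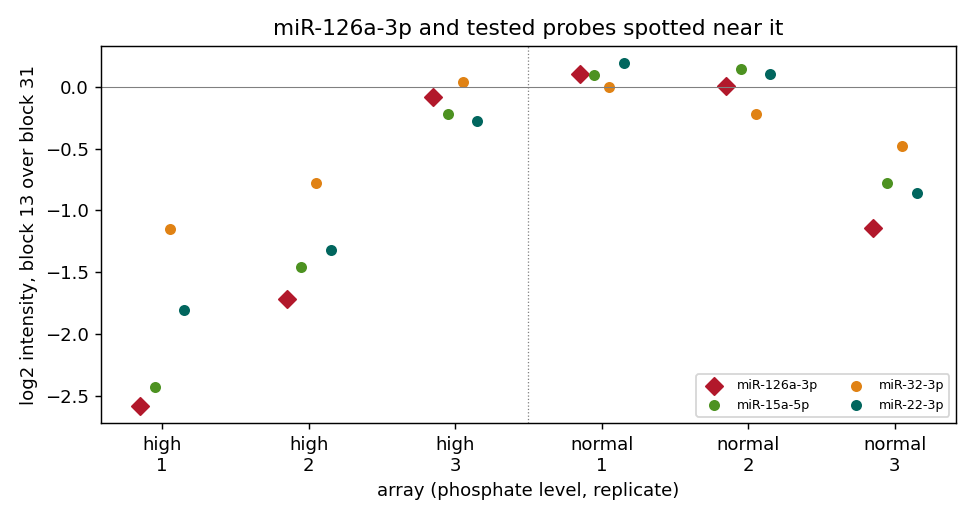
Log2 ratio of intensity in block 13 over block 31 (vertical axis) for miR-126a-3p (diamond) and the 3 tested mouse probes printed near it (circles) on the 3 high and the 3 normal phosphate arrays (horizontal axis). On high phosphate array 1 miR-126a-3p lies at -2.58 and miR-15a-5p at -2.43, while miR-32-3p lies at -1.15.

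The comparison of phosphate levels was fitted on normalized log2 levels of the 129 tested probes. On this scale the 3p arm stood at 12.16, 12.65 and 12.89 in high phosphate, against 13.12, 12.85 and 12.62 in normal phosphate, and the groups overlapped. High minus normal phosphate came to -0.30 on the log2 scale (SE 0.26; 95% interval -0.90 to 0.31; limma with Benjamini-Hochberg adjustment, adjusted p = 0.873). Without high phosphate array 1 it was -0.09, and without normal phosphate array 1 it was -0.17. After this normalization 7 of 129 probes (5.43%) were lower in high phosphate without overlap, and the 3p arm was not one of them. The 5p arm stood at 12.94, 13.65 and 13.04 in high phosphate, against 12.79, 13.04 and 13.30 in normal phosphate, also with overlap. High minus normal phosphate was 0.17 (SE 0.26; interval -0.44 to 0.78; limma, adjusted p = 0.890). The sign of the 3p value turned when arrays were scaled to spike controls or Hy3 spots, where the median of all tested probes was 0.45 and 0.48, and the 3p arm stayed below that median. The sign of the 5p value turned under median scaling, without scaling and with the deposited values, where that median was -0.18, -0.22 and -0.21, and the 5p arm stayed above it. Without high phosphate array 2 the 5p value was -0.058. In this limma fit 0 of 129 probes passed (0%), and 9 had an unadjusted p under 0.05. Without variance moderation 0 passed and 5 had an unadjusted p under 0.05. The unadjusted limma p was 0.286 for the 3p arm and 0.543 for the 5p arm.

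Fitted on the spots of one block set alone, an alternative chosen after seeing the data, the 3p arm gave different sizes. Blocks 1 to 18 gave -1.01 (SE 0.58; 95% interval -2.39 to 0.36; limma, adjusted p = 0.716). Blocks 19 to 36 gave -0.04 (SE 0.17; interval -0.47 to 0.39; limma, adjusted p = 0.934). The interval from blocks 19 to 36 was the narrower one and lay inside that from blocks 1 to 18 apart from its upper end. For the 5p arm the values were 0.30 (SE 0.37) and 0.14 (SE 0.25) from blocks 1 to 18 and 19 to 36 (limma, adjusted p = 0.783 and 0.881). The median log2 difference of all tested probes was -0.02 from blocks 1 to 18 and 0.02 from blocks 19 to 36.

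**Figure D4:**
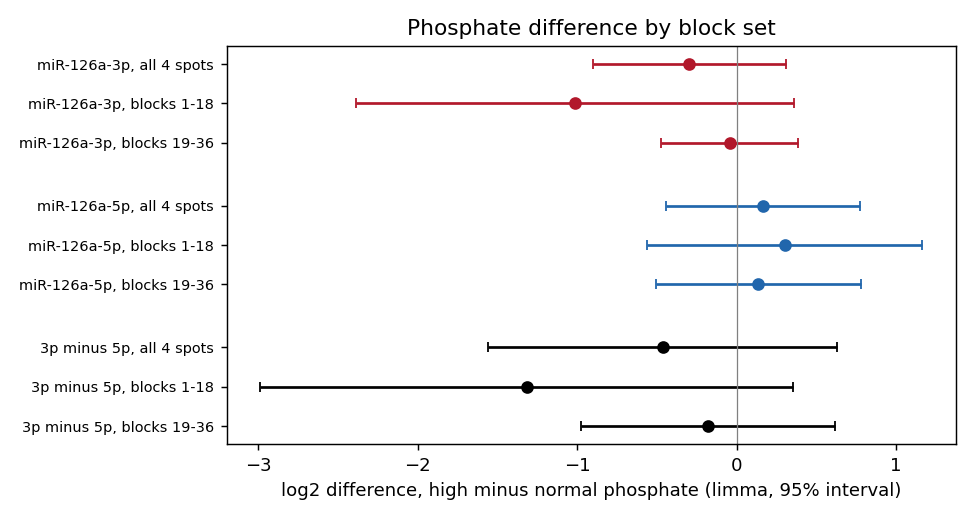
Log2 difference, high minus normal phosphate, with its 95% interval (horizontal axis) for each arm and for the 3p minus 5p difference, from all 4 spots, from blocks 1 to 18 and from blocks 19 to 36. All intervals include 0, and the 3p value lies at -1.01 from blocks 1 to 18 and at -0.04 from blocks 19 to 36.

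The fold of high over normal phosphate in the authors' deposited table was 0.629 for miR-126a-3p, where p was 0.0336 and the false discovery rate 0.794. For miR-126a-5p it was 0.966 in the authors' deposited table, where p was 0.867 and the false discovery rate 0.955. Of 1029 probes with a p in the authors' deposited table, 39 (3.79%) were under 0.05. Behind each deposited value stood the median of a probe's 4 spots, scaled by 1 factor per array. On that scale the 3p arm read 14.3, 16.6 and 16.4 in high phosphate, against 30.7, 22.9 and 21.6 in normal phosphate, and the groups did not overlap. Where the block sets disagreed, that median lay between them. The mean of the spots in block 31 divided by the same factors gave 24.7, 27.1 and 17.2 in high phosphate, against 29.7, 22.8 and 27.3 in normal phosphate, a fold of 0.866 with overlapping groups (2-sided exact permutation p = 0.4). From block 13 the fold was 0.426, also with overlapping groups (2-sided exact permutation p = 0.2).

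The ratio of the arms within an array removes any factor common to the array, but it holds the affinities of both probes and shows only unequal change. Over all spots, the ratio of 3p over 5p signal was 0.559, 0.534 and 0.926 in high phosphate, against 1.38, 0.928 and 0.605 in normal phosphate. On the log2 scale it averaged -0.62 ± 0.44 in high and -0.12 ± 0.59 in normal phosphate (SD, n = 3 each), with overlapping groups and a difference of -0.50 (2-sided exact permutation p = 0.2). From blocks 19 to 36 the ratio was 0.805, 0.813 and 0.913 in high phosphate, against 1.23, 0.828 and 0.818 in normal phosphate. Of those 6 arrays, 5 lay between 0.805 and 0.913, and normal phosphate array 1 was the exception at 1.23. The log2 difference between the groups there was -0.16 (2-sided exact permutation p = 0.5). From blocks 1 to 18 the ratio ran more widely, at 0.197, 0.251 and 0.941 in high phosphate, against 1.55, 1.06 and 0.385 in normal phosphate, with a log2 difference of -1.25 (2-sided exact permutation p = 0.2).

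The arm difference was also fitted together with the other miRNAs that had both arms bright enough to test, which were 4 in all, namely miR-126a, miR-22, miR-30b and miR-30e. For miR-126a the normalized log2 difference between the arms was -0.46 in high minus normal phosphate (SE 0.52; 95% interval -1.56 to 0.63; limma, adjusted p = 0.510 over the 4). In this fit 0 of 4 passed (0%), and 0 had an unadjusted p under 0.05 with or without variance moderation. The values were 0.81 (SE 0.52) for miR-30b and 0.25 (SE 0.52) for miR-30e, both of the miR-30 family. The value was -0.52 (SE 0.52) for miR-22, whose 3p probe also lies in blocks 13 and 31. The SE was the same for all 4 because variance moderation drew them to a common value, so it is not the spread of miR-126a alone. Without moderation the SE for miR-126a was 0.39 (95% interval -1.55 to 0.62).

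Across the 6 arrays the arms did not move together when all spots were used. Pearson's r of their normalized log2 levels was -0.23 (Spearman's rho -0.35), and the 5p arm stood at place 80 of 128 when tested probes were ordered by their r with the 3p arm. From blocks 19 to 36 alone r was 0.66 (rho 0.66). These are descriptions over 6 arrays that share their groups and their normalization. The probes most like the 3p arm by r were the joint probe for miR-199a-3p with miR-199b-3p (0.96), then miR-10a-5p (0.94), miR-221-3p (0.93), miR-676-3p (0.93) and miR-3962 (0.92). From blocks 19 to 36 their r with the 3p arm was 0.30, 0.17, 0.47, 0.25 and -0.23 in the same order. The probes most like the 5p arm were miR-140-3p (0.91), miR-665-5p (0.87), miR-1839-5p (0.86), miR-21a-5p (0.83) and miR-3093-5p (0.83). From blocks 19 to 36 their r was 0.74, 0.91, 0.74, 0.70 and 0.66 in the same order. In that block set Spearman's rho ran from -0.22 to 0.64 for the 3p arm and from 0.38 to 0.97 for the 5p arm. These ranges overlap, and the probes had been picked on values that include the same spots.

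A list of 35 miRNA names described in endothelial cells, both arms of miR-126a among them, was set beside all tested probes. On the array were 33 of the names, and 17 were bright enough to test. Both arms are among the 17, so the counts and the median of the list include them. Of the 17, 0 passed the limma test, and the difference was below 0 for 12 and above 0 for 5, beside 67 below and 62 above among all 129. The median log2 difference was -0.09 for the list and -0.02 for all tested probes. The lowest values were let-7f-5p at -0.79 (SE 1.24), miR-221-3p, known to restrain endothelial migration through Kit, at -0.71 (SE 0.54) and miR-92a-3p, of the miR-17-92 cluster, at -0.38 (SE 0.21). The highest were miR-21a-5p, known from stress and inflammation, at 0.36 (SE 0.25), miR-101a-3p at 0.32 (SE 0.34) and miR-126a-5p at 0.17. The arms of miR-126a therefore lay on opposite sides of the list's median, at the third highest and the fourth lowest place, with standard errors wider than their distance from it.

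**Figure D5:**
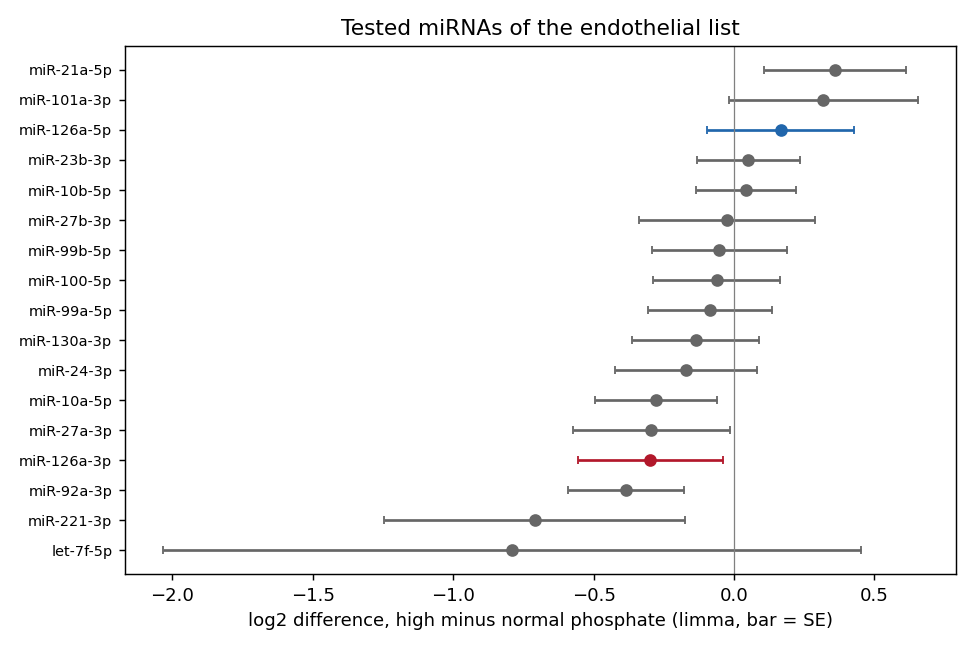
Log2 difference, high minus normal phosphate (horizontal axis, point with SE), of the 17 tested miRNAs of the endothelial list, with miR-126a-3p in red and miR-126a-5p in blue. The values run from -0.79 for let-7f-5p to 0.36 for miR-21a-5p, and 0 of them passed the test.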

How the data were processed

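Exosomal RNA of 6 samples was hybridised to 1-colour miRNA arrays with the dye Hy3, per the labels. The authors deposited spot intensities as foreground and as foreground minus background, per the file headers, and normalized values that are a ratio of a probe's median intensity to a factor for each array (319 to 344.5 units), as recomputed here from the spots. The authors also deposited fold changes (ratio) and p-values. Scanner and image analysis: not given in the sources used here.

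Spots were corrected by normexp with an offset of 50 in limma 3.58.1 under R 4.3.3. The mean of a probe's spots was quantile normalized between arrays on the linear scale, and log2 was taken. Probes above the 95th percentile of viral probes on at least 3 of 6 arrays were tested (129 of 1118) with lmFit and eBayes, Benjamini-Hochberg adjusted, threshold 0.05. Fits by block set used the same 129 probes. These fits, and the rule for neighbouring spots, were chosen after seeing the data. Block set ratios used plain foreground minus background. Alternatives changed background correction, scaling, filter, spot summary, variance model, replicate block and the arrays kept. The fits were tested on simulated data. With 3 arrays a group, their number limits the precision.

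The members and lists were chosen with earlier results of these data known. Named by rule were both arms, the 5 probes most correlated with each, 2 brightness neighbours on each side, up to 3 arm pairs in each direction, and the 3 highest and 3 lowest endothelial miRNAs. The labels used here name no batch.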

Additional observations from a re-analysis of the deposited data

How the results depend on the processing

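In 23 settings each, neither arm nor the arm difference passed limma after adjustment, with adjusted p from 0.450 to 0.973 for the 3p arm, 0.257 to 0.977 for the 5p arm and 0.153 to 0.905 for the arm difference. The 3p difference turned to 0.087 with scaling to 47 spike controls and to 0.12 with scaling to the Hy3 spots, where the median of all tested probes was 0.45 and 0.48, so the 3p arm stayed below that median. Scaling to the Hy3 spots gave 7 changed probes of 129 in place of 0, in the setting where the median of all tested probes lay at 0.48. The 5p difference turned to -0.051 with median scaling, -0.085 without normalization between arrays and -0.081 with the deposited values, which gave -0.66 for the 3p arm (limma, unadjusted p = 0.0354). The median of all tested probes was -0.18, -0.22 and -0.21 in these, so the 5p arm stayed above it. Leaving out each array in turn gave -0.48 to -0.09 for the 3p arm (the ends came from leaving out replicate 3 and replicate 1 of high phosphate), -0.058 to 0.30 for the 5p arm and -0.74 to -0.22 for the arm difference. Before scaling it gave -3419 to -1858 units for the 3p arm and -1774 to 829 units for the 5p arm, with 829 units without high phosphate replicate 3, 779 units without normal phosphate replicate 3 and, on the log2 scale, -0.058 without high phosphate replicate 2. Counts of changed probes and of changed arm differences stayed at 0 in each of these. Deviations of same-numbered arrays from their group means correlated at 0.22, 0.03 and -0.18, and those of differently numbered arrays at -0.36 to 0.45. With 3 arrays a group these values cannot decide whether the replicate numbers pair the arrays. With the replicate block 0 probes passed and the 3p arm stayed at -0.30 (limma, adjusted p = 0.892), the 5p arm at 0.17 (limma, adjusted p = 0.933) and the arm difference at -0.46 (limma, adjusted p = 0.648).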
